A study of Homo sapiens with 12 samples.

Results

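PDK1, PDK2, PDK3 and PDK4, the pyruvate dehydrogenase kinases, were followed in 2 melanoma lines. They were taken by their GENCODE symbols and are 4 of the 60675 gene IDs in the tables. The MIR211 line is A375 that overexpresses MIR211, which encodes miR-211, and A375, an established human melanoma line, is the line it is set against. RNA-seq was done on untreated cells with libraries a and b of each line. For BRIC-seq, both lines were given 5-bromouridine (BrU) for 24 h, and BrU-labelled RNA was pulled down at 0, 1, 3 and 6 h of chase, with 1 library per line and time. There is 1 overexpressing line, so the effect of MIR211 and any other difference between the lines cannot be told apart. No label states that libraries a and b are separate cultures, and p-values cover only the scatter among these libraries, which could be of technical origin. With 1 BRIC-seq library per line and time, the scatter there is that about the fitted model. For slopes it includes any bend away from a straight line in hours. For the line difference at matched times it includes any change of that difference between times.

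The pyruvate dehydrogenase complex in mitochondria turns pyruvate from glycolysis into acetyl-CoA for the citric acid cycle. PDKs phosphorylate its E1 alpha subunit and switch the complex off, and the phosphatases PDP1 and PDP2 remove the phosphate. PDK1 is a target of the hypoxia factor HIF1, PDK2 is the broadly expressed form, PDK3 is also HIF-responsive in cancer cells, and PDK4 is induced by fasting, PPARs, FOXO factors and glucocorticoids. PDK4 has been reported as a direct target of miR-211, a microRNA of the melanocyte lineage whose gene lies in an intron of TRPM1.

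The sequences bear on whether each kinase's 3′ UTR carries letters that pair with the miR-211 seed. The mature microRNA, from RefSeq (GRCh38.p14, chr15:31065095-31065116, minus strand), is shown with the seed, its bases 2 to 8, in capitals, and 30-base windows of the PDK transcripts (GENCODE 44, hg38) are shown with the letters matched to it in capitals.
miR-211-5p: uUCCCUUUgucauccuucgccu
PDK4, chr7:95585320-95585349, minus strand: ataagaataagAAAGGGAgtgagtgtgaag
PDK1, chr2:172600942-172600971, plus strand: ttagtgcccctAAAGGGAAaggaatgtgct
PDK3, long transcript, chrX:24545921-24545950, plus strand: aatccagccagAAAGGGAgatgcagaagat
PDK3, long transcript, chrX:24547960-24547989, plus strand: gtaatttctttAAAGGGAAaagtaaagaga

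The motifs searched, on the transcript's own strand, were AAAGGGA, which pairs with bases 2 to 8, and AAGGGAA, which pairs with bases 2 to 7 and ends in an A opposite base 1. The motifs overlap, and where both occurred together the place was counted once, as an 8-base match. The PDK4 3′ UTR of 2142 bases held 1 match, of AAAGGGA, at position 303. The canonical PDK1 3′ UTR of 12700 bases held 1 match, of 8 bases, at position 4984, and a shorter PDK1 3′ UTR of 1579 bases held none. PDK3 had no match in its canonical 3′ UTR of 350 bases, while a 12720-base transcript held 2. No annotated PDK2 3′ UTR held a match. Among 19200 canonical 3′ UTRs, 25.6% held at least 1 of the motifs. Among those within 20% of the PDK4 length the share was 36.4% of 2427, and near the PDK1 length it was 92.3% of 130, so a match in so long a 3′ UTR is common. A match is a description of letters, not of binding.

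The RNA-seq libraries held 34.1 and 30.5 M counts in the MIR211 line and 20.8 and 28.4 M in A375. The BRIC-seq libraries rose in depth over the chase, with 2.78 to 6.66 M counts in the MIR211 line and 2.67 to 7.28 M in A375. In RNA-seq the MIR211 gene had counts of 36 and 18 in the MIR211 line, against 0 and 0 in A375. In BRIC-seq the MIR211 line had 9, 11, 2 and 3 at 0, 1, 3 and 6 h, against 0 at each time in A375. The RNA-seq counts and those at 0 and 1 h go with the labels. At 3 and 6 h the counts are too few to tell the lines apart. Mature miR-211 was not measured. Markers of the melanocyte lineage summed to 465 to 486 CPM (read counts relative to the library size, scaled by TMM) in RNA-seq of the MIR211 line and 569 to 586 CPM in A375, and the sum hides members that lay far apart. MITF, the lineage's master transcription factor, had 38.8 and 49.0 CPM in the MIR211 line and 253 and 244 CPM in A375. S100B averaged 97.2 ± 3.90 CPM in the MIR211 line and 30.8 ± 2.55 CPM in A375 (SD, n = 2 each). In labelled RNA at 0 h MITF had 58.2 CPM in the MIR211 line and 58.0 CPM in A375, and later it was lower in the MIR211 line. SOX10 had 206 and 231 CPM in RNA-seq of the MIR211 line and 163 and 135 CPM in A375. In labelled RNA SOX10 was lower in the MIR211 line at each time (33.1 against 176 CPM at 0 h). These markers were named after their values were seen. Of the leukocyte genes PTPRC and CD3E were at 0 in all libraries. LYZ, lysozyme, had 6.73, 6.48, 19.1 and 51.0 CPM over the chase in the MIR211 line and 1.75, 1.67, 3.83 and 7.36 CPM in A375. In RNA-seq LYZ was lower on average in the MIR211 line, at 1.41 and 0.808 CPM against 2.95 and 1.36 CPM in A375. In BRIC-seq, 5 fibroblast markers summed to 26.7 to 147 CPM in the MIR211 line and 2.30 to 14.3 CPM in A375. The sums of 4 endothelial markers were 27.2 to 46.3 CPM in the MIR211 line and 1.05 to 4.08 CPM in A375. VWF and CDH5 were at 0. In the MIR211 line LUM made up most of the first sum (23.2 to 130 CPM) and KDR of the second (26.1 to 46.3 CPM). DCN and PDGFRB were also higher than in A375 on average. COL1A2 (0 against up to 5.97 CPM in A375), COL1A1 (mean 0.863 against 1.42 CPM) and PECAM1 (mean 0.587 against 0.648 CPM) were not. In RNA-seq the fibroblast sums were 25.7 to 26.9 CPM in the MIR211 line and 26.1 to 61.3 CPM in A375, and the endothelial sums 6.03 to 9.18 CPM in the MIR211 line and 3.58 to 4.17 CPM in A375. The line difference was not the same in both assays for all genes: across 12677 genes, which are not independent, Pearson's r between them was 0.408 and Spearman's rho 0.245. The part of these differences in the PDK values was not tested.

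PDK4 was the kinase whose steady-state RNA fell in the MIR211 line. PDK4 (ENSG00000004799, hg38 chr7:95583499-95596516, minus strand) had 456 and 422 counts in libraries a and b of the MIR211 line and 1248 and 1633 in A375. On the scaled level that was 13.4 and 13.6 CPM in the MIR211 line, against 61.3 and 56.8 CPM in A375. The MIR211 line libraries lie close together and far below both A375 libraries, with no overlap. The mean was 13.5 ± 0.157 CPM in the MIR211 line and 59.0 ± 3.18 CPM in A375 (SD, n = 2 each). The log2 difference was -2.12 (SE 0.17), 4.36-fold lower, and PDK4 ranked 32 by p of 19258 genes (edgeR quasi-likelihood test, adjusted p = 0.0441). Of all genes tested, 0.379% passed, 0.208% lower and 0.171% higher, and 10.9% had an unadjusted p under 0.05. In bulk RNA, fewer cells with the transcript and less transcript per cell cannot be told apart.

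The size of the PDK4 difference did not depend on a single library, but its call did. It was -2.10 without library a and -2.13 without library b of the MIR211 line, and -2.07 without library a and -2.18 without library b of A375. The edgeR adjusted p was then 0.141, 0.141, 0.0789 and 0.0970, so that each of the 4 libraries was needed to pass. The lone library of a line is there assumed to vary like the other line. DESeq2 on all 4 libraries gave -2.12 (adjusted p = 3.36e-17).

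PDK1, PDK2 and PDK3 did not pass in RNA-seq. PDK1 (ENSG00000152256, hg38 chr2:172555373-172608669, plus strand), the HIF-responsive kinase, had 32.3 and 49.7 CPM in the MIR211 line and 47.2 and 69.9 CPM in A375. Library b of the MIR211 line was above library a of A375, so the lines overlap (log2 -0.52, SE 0.31, edgeR adjusted p = 0.666). PDK3 (ENSG00000067992, hg38 chrX:24465244-24550466, plus strand), the kinase least inhibited by pyruvate, had 16.8 and 24.9 CPM in the MIR211 line and 18.0 and 35.8 CPM in A375. It also overlapped (log2 -0.37, SE 0.40, edgeR adjusted p = 0.848), and both genes were higher in library b of each line. With 1 library left out PDK1 lay between -0.86 (without library b of the MIR211 line) and -0.20 (without library b of A375), and PDK3 between -0.79 (without library a of A375) and 0.21 (without library b of A375), so the sign of PDK3 rested on 1 library. PDK2 (ENSG00000005882, hg38 chr17:50094737-50112152, plus strand), the broadly expressed kinase, had 12.8 and 12.6 CPM in the MIR211 line and 11.5 and 11.8 CPM in A375. Both MIR211 line libraries were slightly higher, by 1.09-fold (log2 0.13, SE 0.19, edgeR adjusted p = 0.903).

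**Figure D1:**
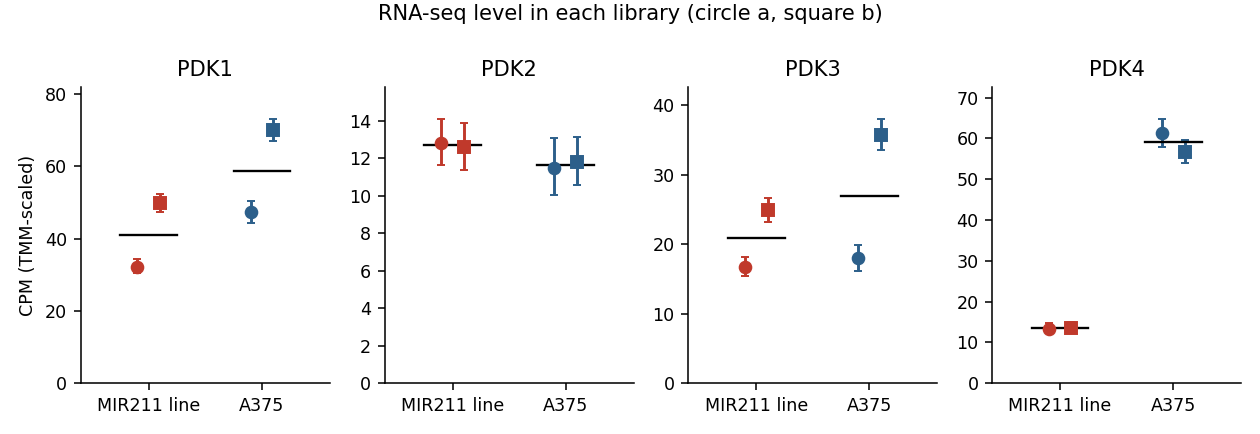
RNA-seq level of each PDK in CPM on TMM-scaled library sizes, in the MIR211 line and A375; circles are library a, squares library b, bars exact Poisson intervals at 95% (counting error only) and black lines the mean of 2 libraries. PDK4 sits at 13.4 and 13.6 CPM in the MIR211 line and at 61.3 and 56.8 CPM in A375, while PDK1 and PDK3 differ between a and b within each line.

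Reads shared with overlapping genes could touch 2 of the kinases, since the strand setting of the counting is not given in the sources used here. The antisense gene PDK4-AS1 had 0 to 4 RNA-seq counts and 0 in BRIC-seq, against at least 6 of PDK4. PDK1-AS1 had 5 to 31 RNA-seq counts and 0 to 88 BRIC-seq counts, against 157 to 586 of PDK1 in BRIC-seq. SAMD14, antisense to PDK2, had 10 to 32 RNA-seq counts and 0 to 7 in BRIC-seq, against 0 to 25 of PDK2, so that PDK2 in BRIC-seq is uncertain.

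Between genes, levels were set per kilobase of exon, and the order depended on the length taken. With the union of all annotated exons, PDK4 was 32.4 ± 3.69% of the 4 kinases' RNA in the MIR211 line and 63.2 ± 6.90% in A375 (SD, n = 2 each). PDK1 made up 29.5 ± 5.29% in the MIR211 line and 19.0 ± 4.20% in A375. PDK2 was 25.3 ± 3.53% in the MIR211 line and 10.3 ± 0.385% in A375. PDK3 was lowest, at 12.8 ± 1.94% in the MIR211 line and 7.39 ± 3.08% in A375. In the MIR211 line PDK4 was above PDK2 in library a (35.0 and 27.8%) and in library b (29.8 and 22.8%). PDK1 was below both in library a (25.8%), and in library b it was above both (33.3%). In A375 PDK4 stood well above the other kinases by this length. The PDK3 union of exons is 17456 bases and its canonical transcript 1741 bases. With canonical transcripts, an alternative added after seeing the data, PDK3 was 53.0 ± 4.84% in the MIR211 line and 38.1 ± 11% in A375, and PDK4 was 17.0 ± 2.96% in the MIR211 line and 42.5 ± 10.4% in A375. Which PDK3 transcript the cells use was not tested. Under each length taken, the PDK4 share was lower in both MIR211 line libraries than in both A375 libraries.

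**Figure D2:**
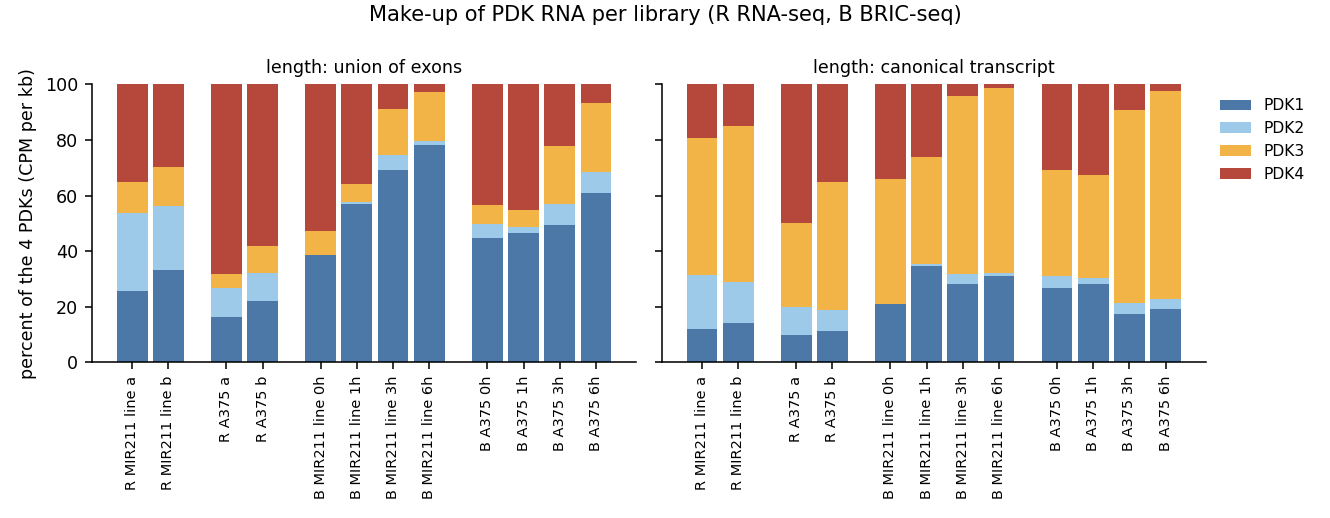
Percent of the summed CPM per kb of PDK1 to PDK4 in each library, with lengths from the union of exons (left) and from canonical transcripts (right); R marks RNA-seq (a, b) and B marks BRIC-seq (0 to 6 h), with the MIR211 line left of A375 in each assay. PDK4 takes 32.4% in RNA-seq of the MIR211 line and 63.2% in A375 by union of exons, and its share shrinks over the chase in both lines.

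A ratio of PDK4 to PDK3 counts within a library needs no scaling between libraries. In RNA-seq it was 0.799 and 0.548 in the MIR211 line, and 3.4 and 1.59 in A375, with no overlap. The ratio of PDK4 to PDK1 was 0.416 and 0.274 in the MIR211 line and 1.30 and 0.812 in A375. PDK4 was therefore lower relative to both of these kinases as well as in CPM.

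Over the chase, labelled PDK4 RNA fell in both lines. In the MIR211 line PDK4 had 66, 86, 20 and 6 counts at 0, 1, 3 and 6 h of chase, or 17.8, 16.9, 3.41 and 1.46 CPM. In A375 it had 81, 135, 60 and 17 counts, or 23.6, 28.3, 8.20 and 3.38 CPM. Both lines held their level in the first hour and lost most of it between 1 and 3 h. The level at 6 h was 8.19% of that at 0 h in the MIR211 line (95% interval 2.90 to 18.8%) and 14.3% in A375 (7.96 to 24.4%), with intervals that overlap and cover counting error only. From 1 to 3 h 20.2% was left in the MIR211 line and 29.0% in A375, and from 3 to 6 h 42.6% in the MIR211 line and 41.3% in A375.

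Slopes (log2 per hour) are set against TMM-scaled library sizes, under which the median slope of all genes was -0.038. Labelled RNA itself shrinks, so slopes order the transcripts and do not give true decay rates. The mean PDK4 slope over both lines was -0.59 (SE 0.08, edgeR quasi-likelihood test, adjusted p = 0.000275), near the 5.01 percentile of the slopes of 13703 genes. Of these genes 64.3% passed, 29.9% with a rise and 34.4% with a fall, so passing alone says little of a gene. The slope was -0.68 (SE 0.12, adjusted p = 0.00497) in the MIR211 line, where 42.9% of genes passed, and -0.53 (SE 0.11, adjusted p = 0.00714) in A375, where 47.2% passed, both by edgeR. The mean PDK4 slope was -0.57 with DESeq2's size factors, -0.75 with total counts and -0.95 with ribosomal protein mRNAs held constant. PDK4 thus fell under each scaling, while the median slope of all genes was -0.012, -0.20 and -0.39. Without its own 6 h library the slope was -0.82 in the MIR211 line (adjusted p = 0.0943) and -0.56 in A375 (adjusted p = 0.161) by edgeR. Neither passed, and without a line's 6 h library no gene passed in that line.

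PDK3 moved the opposite way over the chase, and this direction rested on the scaling. At 0, 1, 3 and 6 h, PDK3 of the MIR211 line had 11.3, 12, 25.1 and 37.9 CPM and that of A375 14.0, 15.5, 29.7 and 50.3 CPM. The level at 6 h was 3.35 times that at 0 h in the MIR211 line and 3.6 times in A375. Its mean slope was 0.32 (SE 0.04, edgeR adjusted p = 0.000183) and 0.15 with total counts, but -0.036 with ribosomal protein mRNAs held constant. PDK3 thus rose on the TMM scale and relative to all counts, and not relative to those long-lived mRNAs. By line the slope was 0.31 (SE 0.06, adjusted p = 0.00637) in the MIR211 line and 0.32 (SE 0.06, adjusted p = 0.0046) in A375, by edgeR. Without its own 6 h library the slope was 0.42 in the MIR211 line (edgeR adjusted p = 0.0972) and 0.39 in A375 (edgeR adjusted p = 0.116). Neither passed, nor did any gene in that line's fit.

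PDK1 had a course that differed in shape between the lines, with 1 library behind each point. At 0, 1, 3 and 6 h it had 42.3, 87.4, 89.3 and 142 CPM in the MIR211 line and 79.6, 95.5, 59.6 and 104 CPM in A375. At 0 h the MIR211 line had 0.531 times the A375 level, at 3 h 1.50 times and at 6 h 1.37 times, while A375 dipped at 3 h. The PDK1 slope was 0.23 (SE 0.07, edgeR adjusted p = 0.0414) in the MIR211 line and 0.037 (SE 0.07, edgeR adjusted p = 0.686) in A375, and the MIR211 line slope was -0.15 with ribosomal protein mRNAs held constant. In the MIR211 line the PDK1 slope no longer passed by edgeR without the 0 h (0.14, adjusted p = 0.205), 3 h (0.24, adjusted p = 0.0535) or 6 h (0.31, adjusted p = 0.286) library of the MIR211 line, or without the 0 h (0.23, adjusted p = 0.0634) or 1 h (0.23, adjusted p = 0.0609) library of A375. The mean PDK1 slope of 0.13 (SE 0.06, adjusted p = 0.0755) did not pass, and it did without the 3 h library of A375 (0.14, adjusted p = 0.0412).

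PDK2 was too low in labelled RNA to follow. The MIR211 line had 0, 2, 15 and 4 counts of it at 0, 1, 3 and 6 h, and A375 had 11, 7, 25 and 23. The count of 0 at 0 h in the MIR211 line allows up to 0.808 CPM. Its mean slope of 0.21 (SE 0.15, edgeR adjusted p = 0.239) did not pass, and in RNA-seq the same gene gave 234 to 436 counts per library.

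**Figure D3:**
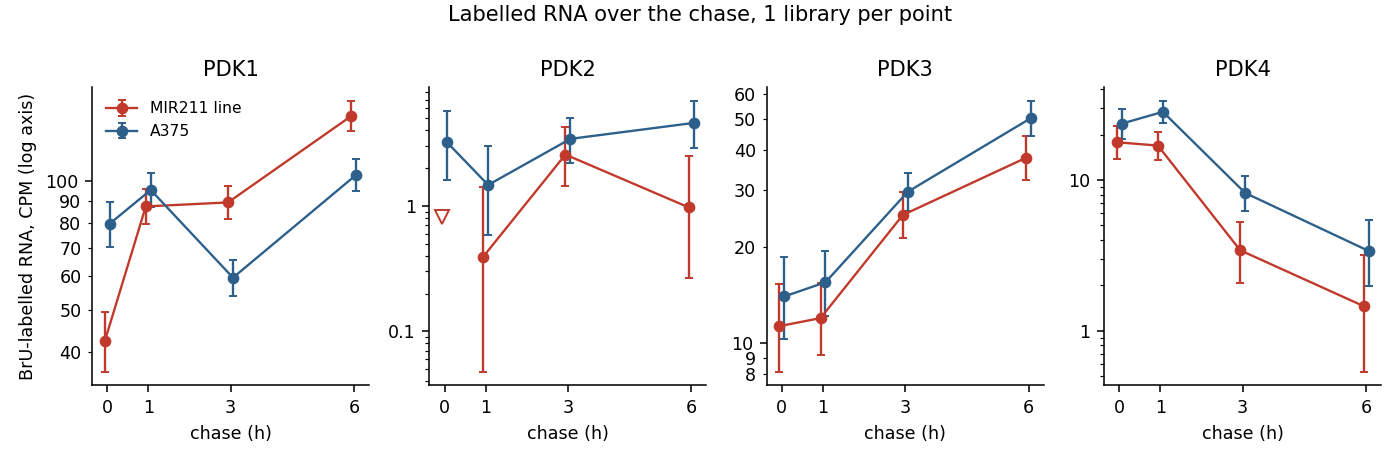
BrU-labelled RNA of each PDK in CPM (log axis) against hours of chase, the MIR211 line in red and A375 in blue, 1 library per point, with exact Poisson intervals at 95%; the open triangle is the limit of 0.808 CPM that the PDK2 count of 0 allows, and points are shifted slightly sideways. PDK4 falls to 1.46 CPM in the MIR211 line and 3.38 CPM in A375 at 6 h, while PDK3 is at 37.9 CPM in the MIR211 line and 50.3 CPM in A375.

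The ratio of PDK4 to PDK3 counts within each library, which needs no scaling, fell over the chase and gives the course of PDK4 relative to PDK3. At 0, 1, 3 and 6 h it was 1.57, 1.41, 0.136 and 0.0385 in the MIR211 line and 1.69, 1.82, 0.276 and 0.0672 in A375. In both lines PDK4 outnumbered PDK3 at 0 and 1 h and was far below it at 3 and 6 h. At every time the ratio was lower in the MIR211 line, and at 3 h the 95% intervals were 0.0807 to 0.218 in the MIR211 line and 0.204 to 0.370 in A375, which overlap slightly.

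Whether the kinases' slopes differed between the lines was tested directly, and none passed. The difference, the MIR211 line minus A375, was -0.14 for PDK4 (SE 0.16, unadjusted p = 0.382), 0.19 for PDK1 (SE 0.10, unadjusted p = 0.105), 0.16 for PDK2 (SE 0.33) and -0.012 for PDK3 (SE 0.08), with an edgeR adjusted p of 1 for each. With 1 library left out the difference lay between -0.30 (without the 6 h library of the MIR211 line) and -0.064 (without the 0 h library of A375) for PDK4, and between 0.11 and 0.40 for PDK1. For PDK2 it lay between -0.059 and 1.39 and for PDK3 between -0.075 and 0.089, so that 1 library turned the sign of both. Of 13703 genes 0 passed by edgeR (a share of 0%), 527 (3.85%) had an unadjusted p under 0.05 and DESeq2 called 14. The standard error of the PDK4 difference is about as large as the difference itself, so a change in either direction of that size was not detectable here. A p that misses the threshold does not show that PDK4 decayed alike in both lines.

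**Figure D4:**
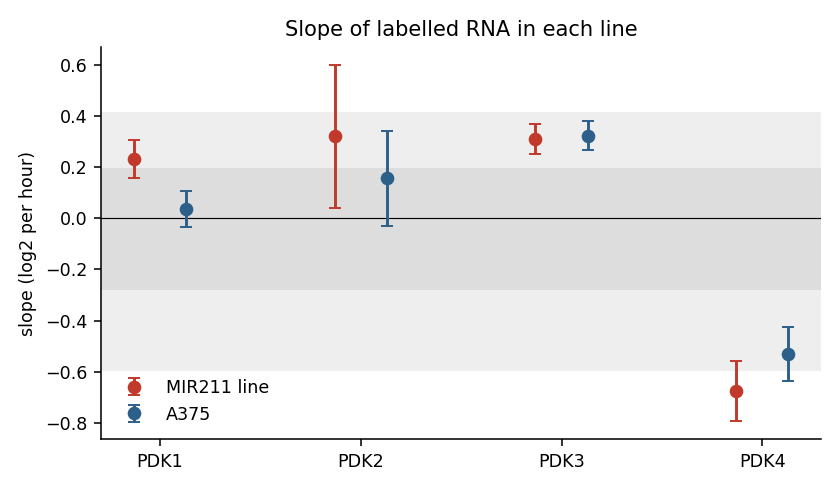
Slope of labelled RNA in log2 per hour for each PDK, the MIR211 line in red and A375 in blue, with standard errors; grey bands hold the middle 50 and 90 percent of the mean slopes of 13703 genes. PDK4 is at -0.68 in the MIR211 line and -0.53 in A375, at the lower edge of the wide band, and PDK3 is at 0.31 in the MIR211 line and 0.32 in A375.

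With each time matched, labelled PDK4 was lower in the MIR211 line across the chase. Its ratio of the MIR211 line to A375 was 0.752 at 0 h (95% interval 0.535 to 1.05), 0.598 at 1 h (0.451 to 0.789), 0.416 at 3 h (0.238 to 0.701) and 0.430 at 6 h (0.139 to 1.14). All 4 ratios were below 1, and the intervals at 1 and 3 h lie wholly below it. The log2 line difference of PDK4 was -0.83 (SE 0.20), 1.77-fold lower, with the 4 times standing in for replicates (edgeR quasi-likelihood test, adjusted p = 0.0297). Of all genes tested 25.9% passed, 12.3% lower and 13.6% higher in the MIR211 line. The 1.77-fold difference spans the whole chase, and at 0 h alone labelled PDK4 was 1.33-fold lower. The same gene was 4.36-fold lower in RNA-seq, which had no chase, and the assays were not tested against each other.

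The matched PDK4 difference lost its call without 6 of the 8 libraries and kept its sign. Without a library of the MIR211 line it was -0.86 (1 h, adjusted p = 0.107), -0.68 (3 h, adjusted p = 0.117) and -0.76 (6 h, adjusted p = 0.0721) by edgeR. Without a library of A375 it was -0.88 (1 h, adjusted p = 0.102), -0.61 (3 h, adjusted p = 0.156) and -0.76 (6 h, adjusted p = 0.0714). With no filter on low counts it was -0.81 (adjusted p = 0.0773). The other kinases did not pass in edgeR's matched test. PDK3 was at -0.33 (SE 0.12, adjusted p = 0.0848), with ratios of 0.808, 0.773, 0.846 and 0.752 at the 4 times, PDK2 at -1.63 (SE 0.61, adjusted p = 0.0986) on few counts, and PDK1 at 0.021 (SE 0.25, adjusted p = 0.966).

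Of the complex that the kinases act on, 5 subunit genes were tested in RNA-seq and none passed (0.379% of all genes did). DLAT, the E2 core on which PDKs dock, was at 42.4 and 39.8 CPM in the MIR211 line and 56.9 and 73.0 CPM in A375 (log2 -0.66, SE 0.20, edgeR adjusted p = 0.321). PDHA1, the E1 alpha subunit that PDKs phosphorylate, was at -0.28 (SE 0.23), PDHB at 0.025, PDHX at -0.26 and DLD at -0.21, while PDHA2, the testis form, was not tested. In labelled RNA, DLAT was lower at matched times (log2 -0.89, SE 0.10, edgeR adjusted p = 0.002), with 25.3, 18.7, 39.1 and 47.3 CPM in the MIR211 line and 48.1, 36.0, 69.8 and 86.8 CPM in A375. Over the chase PDHA1 (slope 0.38), PDHB (0.32), DLD (0.31) and DLAT (0.19) passed as PDK3 did, and PDHX (0.020) did not. With ribosomal protein mRNAs held constant PDHB, DLD and DLAT changed sign and PDHA1 was at 0.027.

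The phosphatases, which oppose the PDKs, did not pass in RNA-seq either. PDP1, the calcium-stimulated form, had 159 and 164 CPM in the MIR211 line and 87.9 and 135 CPM in A375 (log2 0.53, SE 0.25, edgeR adjusted p = 0.549). PDP2 was at -0.16 (SE 0.48), between -0.90 and 0.33 with 1 library left out. The regulatory subunit PDPR had 82.3 and 27.9 CPM in the MIR211 line and 36.8 and 26.2 CPM in A375 (log2 0.81, SE 0.54), and -0.16 without library a of the MIR211 line. In labelled RNA, PDP1 was higher in the MIR211 line at each matched time, with 198, 210, 32.3 and 17.0 CPM over the chase, against 21.6, 102, 14.6 and 6.37 CPM in A375. The log2 line difference was 1.68 (SE 0.38, edgeR adjusted p = 0.0224), with the opposite sign to PDK4, and its lowest and highest values with 1 library left out were 1.18 and 1.96 (adjusted p up to 0.0575, the call lost without 5 of the 8 libraries). The mean PDP1 slope was -0.63 (SE 0.14, adjusted p = 0.00398), close to that of PDK4.

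**Figure D5:**
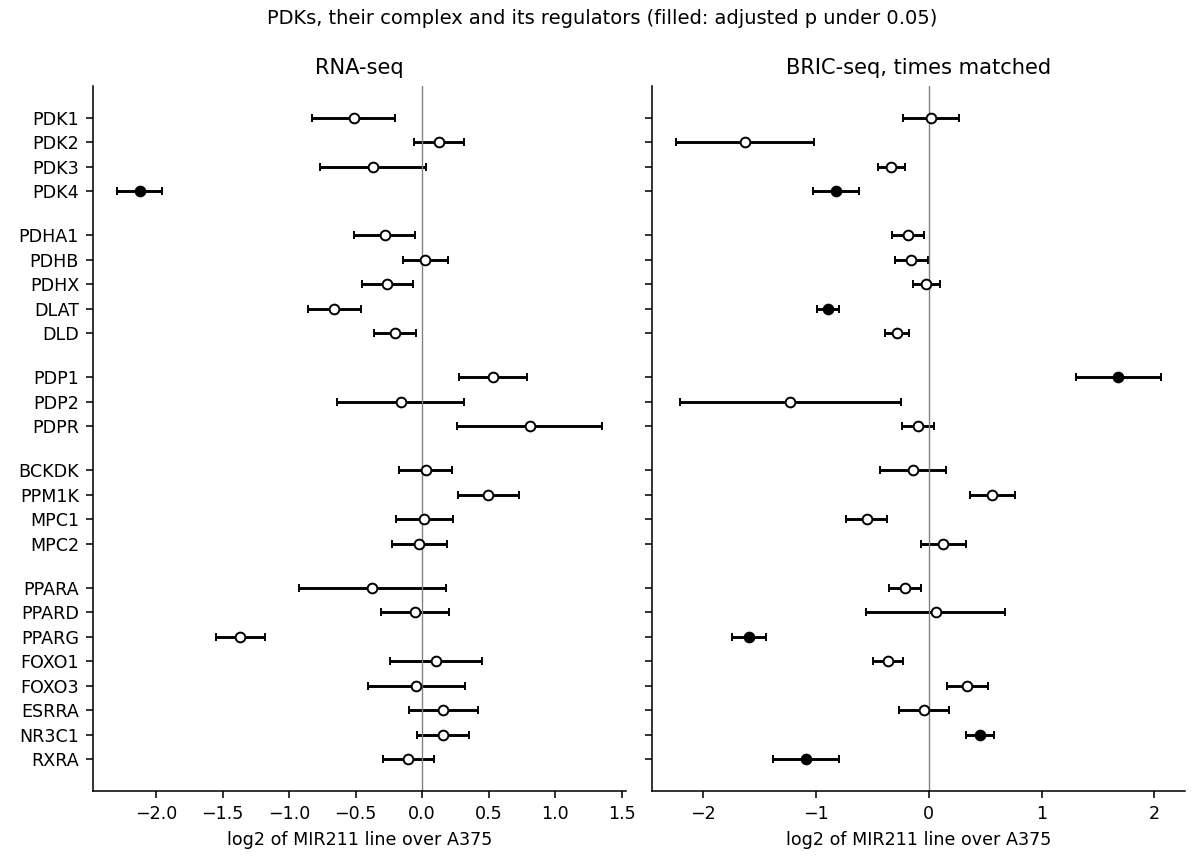
Log2 line difference, the MIR211 line over A375, with standard errors, of the PDKs, the complex, its phosphatases, the branched-chain pair BCKDK and PPM1K, the pyruvate carriers and PDK4 regulators, in RNA-seq (left) and in BRIC-seq with times matched (right); filled points passed the edgeR test. In RNA-seq PDK4 (-2.12) is the filled point, and in BRIC-seq PDK4, DLAT, PDP1, PPARG, NR3C1 and RXRA are filled.

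Known regulators of PDK4 were counted as a list of 10 genes. None of the 10 passed in RNA-seq by edgeR, a test that 0.379% of all genes passed. PPARG, a nuclear receptor of the PPAR family, had 25.8 and 30.2 CPM in the MIR211 line and 67.5 and 76.9 CPM in A375, with no overlap (log2 -1.37, SE 0.19, edgeR adjusted p = 0.0755). PPARGC1A, the PGC-1 alpha coactivator of PDK4 transcription, had 0.50 and 0.259 CPM in the MIR211 line and 6.63 and 2.95 CPM in A375 (log2 -3.63, SE 0.59, edgeR adjusted p = 0.106). Both passed with DESeq2 (adjusted p = 3.49e-06 for PPARG and 2.16e-05 for PPARGC1A) and in edgeR with a and b as a replicate block (adjusted p = 0.0496 for PPARG and 0.0379 for PPARGC1A), and PPARGC1A was named after its values were seen.

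In labelled RNA, 8 of the 10 regulators were tested. PPARG was lower at matched times, at 37.7, 38.9, 30.4 and 19.4 CPM in the MIR211 line and 88.6, 105, 100 and 78.6 CPM in A375 (log2 -1.60, SE 0.15, edgeR adjusted p = 0.00111). RXRA, the shared partner of PPARs, was lower (-1.09, adjusted p = 0.0379), and the glucocorticoid receptor NR3C1 was higher (0.45, adjusted p = 0.0413), both by edgeR. The RXRA call was lost without 6 of the 8 libraries (adjusted p up to 0.205) and the NR3C1 call without 7 (adjusted p up to 0.119). PPARGC1A was not tested there and had the opposite order, with 9.69, 8.44, 4.61 and 0.971 CPM in the MIR211 line against 0, 0, 0.410 and 0 CPM in A375. Over the chase 5 of the 8 fell and none rose (34.4% and 29.9% of all genes tested), with a median slope of -0.20 against -0.038 for all genes. FOXO1 (-0.64), FOXO3 (-0.60) and NR3C1 (-0.41) had the steepest slopes, with PDK4 at -0.59.

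Genes that PPAR and FOXO factors induce along with PDK4 did not pass in RNA-seq (0 of 12 tested by edgeR, against 0.379% of all genes). Of these, 10 had values below 0 in the MIR211 line, with a median log2 of -0.27 against -0.0035 for all genes. The lipid droplet gene PLIN2, at 361 and 389 CPM in the MIR211 line and 648 and 898 CPM in A375, and the fatty acid dehydrogenase ACADM, at 42.5 and 37.7 CPM in the MIR211 line and 69.9 and 63.8 CPM in A375, passed with DESeq2 alone and were named after their values were seen. At matched times of BRIC-seq ACADM was lower (log2 -0.46, edgeR adjusted p = 0.0195, lost without 6 of the 8 libraries with adjusted p up to 0.122) and the insulin signalling adaptor IRS2 higher (1.04, edgeR adjusted p = 0.00082), of 8 tested. A list of HIF target genes, the company of PDK1, also held HIF1A, which encodes the factor's alpha subunit. Of its 11 genes 0 passed in RNA-seq by edgeR, against 0.379% of all genes. Of the 11 values 10 were below 0, with a median log2 of -0.41 against -0.0035 for all genes. All but VEGFA and EGLN3 were highest in library b of A375, such as CA9 (73.7 CPM, elsewhere 16.8 to 24.7 CPM). PDK1 was also highest there, and its log2 difference was -0.52, but -0.20 without that library. In BRIC-seq at matched times 3 of 9 tested genes of this list were higher in the MIR211 line and none lower (13.6% and 12.3% of all genes tested). The 3 were the target genes PGK1 (0.56) and P4HA1 (0.73), and HIF1A (0.92) itself.

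In the metabolism around the kinases, none of the 16 citric acid cycle genes or the 8 lactate and pyruvate genes passed in RNA-seq by edgeR. Nor did the 2 pyruvate carriers or the branched-chain kinase BCKDK and phosphatase PPM1K, and of all genes 0.379% passed. In BRIC-seq at matched times 5 of 7 lactate and pyruvate genes were higher in the MIR211 line and none lower (13.6% and 12.3% of all genes tested), among them ME2 (1.35), LDHB (0.94), ME1 (0.70) and LDHA (0.37, lost without 3 of the 8 libraries, adjusted p up to 0.0542), and SUCLG2 (1.13) was the 1 of 16 citric acid cycle genes that passed. Over the chase all 16 citric acid cycle genes rose on the TMM scale (29.9% of all genes tested). Among them were MDH2 (0.45), SUCLG2 (0.39) and SDHB (0.39). With ribosomal protein mRNAs held constant none of the 16 rose and 2 fell, while of all 13703 genes 36 rose and 9341 fell. MPC1 (0.32), MPC2 (0.31) and BCKDK (0.28) rose and PPM1K (-0.39) fell, and the first 3 changed sign under that scaling.

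Over all 9 lists, of 71 genes, none of the 69 tested passed in RNA-seq by edgeR, where 0.379% of all genes did. Of the 69, 8 had an unadjusted p under 0.05, a share near the 10.9% of all genes. DESeq2 called 4 of them, all lower, and 748 of all 19258 genes. With a and b as a replicate block edgeR called 2, both lower, and 192 of all genes. In that fit 15 of the 69 had an unadjusted p under 0.05. The median log2 difference of the 69 in the main fit was -0.13 against -0.0035 for all genes. In BRIC-seq on the TMM scale 29.9% of all genes rose over the chase and 34.4% fell, with a median slope of -0.038. Of the 60 listed genes tested, 37 rose and 11 fell, with a median slope of 0.27. With total counts 29 rose and 18 fell, while of all 13703 genes 1875 rose and 7226 fell. With ribosomal protein mRNAs held constant 1 rose and 24 fell (median slope -0.085, against -0.39 for all genes). Of all genes 36 then rose and 9341 fell. PDK4 fell under each of these scalings, as did most genes under the last 2. At matched times 12 of the 60 were higher and 4 lower in the MIR211 line (13.6% and 12.3% of all genes tested). No slope differed between the lines by edgeR, as for all genes. Of the 60, 2 had an unadjusted p under 0.05, against 3.85% of all genes.

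The genes most like each kinase were found by the root mean square (RMS) difference of log2 CPM over all 12 libraries, centred within each assay, among 7775 genes. PDK4 was most like ERRFI1, an inhibitor of the EGF receptor (RMS 0.29), ATXN1 (0.42) and the phosphodiesterase PDE4B (0.43). In RNA-seq these 3 had log2 differences of -1.38, -1.14 and -1.25, and over the chase slopes of -0.56, -0.53 and -0.56. They were chosen for likeness over these same libraries, so values like those of PDK4 follow from the choice. PDK3 was most like the chaperonin subunit CCT4 (0.12), NCS1 (0.14) and the pseudogene HMGB1P10 (0.15), whose reads are uncertain. PDK1 was most like PREB (0.25), DRG1 (0.28) and ACTG1 (0.28), and PDK2, with few BRIC-seq counts, was most like EIF2B4 (0.48), IQGAP2 (0.49) and MRPL57 (0.51). The 4 kinases share none of these neighbours, which says little with 3 picked for each from 7775 genes.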

How the data were processed

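Total RNA (4 RNA-seq libraries) and BrU-labelled RNA (8 BRIC-seq libraries) were sequenced with a stranded total RNA kit, per the labels' protocols. The authors deposited whole-number read counts per gene with no normalization, 1 table per assay. Reads were aligned with HISAT2 2.1.0 and StringTie was used, per the submitters' processing notes. The notes name the build hg19 and the series' design text hg38, so coordinates here come from GENCODE 44 (hg38) and not from the tables. How strand and multi-mapping reads were handled is not given in the sources used here. The design text says the authors used DESeq2. Of 60675 gene IDs, 56558 (93.2%) matched a symbol. A row of the BRIC-seq table that names no gene (0.000108% to 0.00122% of a library) was left out. Of value columns, 0 were unmapped.

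The main test was edgeR 4.0.16 in R 4.3.3 (quasi-likelihood, TMM) on the counts, after filterByExpr by line (minimum count 10, minimum total 15), with Benjamini-Hochberg adjustment over all genes tested in a comparison. An adjusted p under 0.05 passed. Residual degrees of freedom were 2 in RNA-seq, 5 for the mean slope (line as covariate), 4 for slopes by line and their difference, and 3 for the line difference with time as a factor. Fits other than the slopes by line were run on simulated counts with independent libraries, a set dispersion and straight-line changes over the chase. The libraries here need not be like that, so the simulation does not show how well the p-values hold here. Alternatives were DESeq2 1.42.0, its size factors in edgeR, total counts, 77 ribosomal protein mRNAs held constant, no filter, each library left out, a replicate block, and other gene lengths. Intervals are exact (Poisson, or conditional binomial for ratios) at 95% and cover counting error only. A count of 0 allows up to 3 counts.

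The kinases were always named. Of each pathway list, up to 4 passing genes with the smallest p were named, and all complex subunits and phosphatases. Some genes that the rule or the marker lists name are not reported here. Members and lists were chosen with earlier results of these data known. Libraries a and b of a line differed far beyond counting noise (chi-square per degree of freedom 57.8 in the MIR211 line and 112 in A375).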

Additional observations from a re-analysis of the deposited data

How the results depend on the processing

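The PDK4 RNA-seq difference kept its sign under all settings run, and its range with 1 library left out was -2.18 to -2.07, with the call lost each time. The number of genes passing in RNA-seq was 73, against 748 with DESeq2, 237 with no count filter and 0 to 15 with 1 library left out. With a and b as a replicate block it was 192. The labels do not say that the letters pair the libraries, and with 2 pairs (correlation of deviations 0.238) this is no evidence that they do; the block changed no PDK call, and of the listed genes it added PPARG and PPARGC1A. Total counts moved the median slope by -0.163 and ribosomal protein mRNAs held constant by -0.356, so slopes near 0 turn sign. With those mRNAs held constant the mean slope was -0.24 for PDK1 (passing, as a fall), -0.036 for PDK3, -0.050 for DLD, -0.031 for PDHB, -0.16 for DLAT, -0.34 for PDHX, -0.081 for BCKDK, -0.051 for MPC2, -0.043 for MPC1, -0.055 for ME2, -0.089 for ACADM and -0.064 for BNIP3. By line it was -0.15 for PDK1 and -0.041 for PDK3 in the MIR211 line and -0.031 for PDK3 in A375. With total counts PDHX was at -0.14, and slopes that no longer passed were 0.053 for PDK1 and 0.13 for PDK3 in the MIR211 line and 0.17 for PDK3 in A375. The mean PDK1 slope passed at 0.16 both with DESeq2 and with its size factors, and ranged from 0.077 to 0.17 with 1 library left out. The MIR211 line slope of PDK1 was 0.23 with no count filter and no longer passed. With 1 library left out, slopes in the MIR211 line were 0.14 to 0.31 for PDK1, 0.29 to 0.42 for PDK3 and -0.82 to -0.62 for PDK4, and in A375 0.31 to 0.39 for PDK3 and -0.61 to -0.47 for PDK4. Genes passing then numbered 0 to 5870 in the MIR211 line (0 without its 6 h library, 3914 without its 1 h library) and 0 to 6761 in A375 (0 without its 6 h library, 4308 without its 1 h library). The slope difference gave 14 genes with DESeq2 and 1 with no count filter. The matched line difference gave 1739 to 2861 genes with 1 library left out, lowest without a 1 h or 3 h library of either line, and for PDK4 -1.0 to -0.61, or -0.81 with no count filter. Shares of the family moved with the length taken. With the longest transcript PDK1 was 23.9% and PDK2 31.5% in the MIR211 line, and PDK2 13.3% in A375. With the canonical transcript PDK1, PDK2, PDK3 and PDK4 were 12.9, 17.2, 53.0 and 17.0% in the MIR211 line and 10.5, 8.91, 38.1 and 42.5% in A375. The cause of these changes was not tested. In BRIC-seq the precision is limited by few counts for PDK2 (0 to 25) and for PDK4 at 3 and 6 h (6 to 60), although the 3 and 6 h libraries are the deepest.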
